A study of Mus musculus with 8 samples.

Results

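Leptin, its receptor and adiponectin were followed through the mouse mammary epithelium over a pregnancy cycle. The members are 3 genes of the 27998 in the count tables, Lep, Lepr and Adipoq, matched by symbol. Lep was selected on its measured level in the basal cells of lactating mice, so its levels, and those of Lepr and Adipoq beside it, are given below as a description and carry no test. Lepr was added as the receptor of leptin, and Adipoq as a check for RNA from fat cells.

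Leptin is a hormone of white fat cells that reports the fat stores of the body to the hypothalamus, where it restrains food intake. It binds a receptor of the type I cytokine family, encoded by Lepr, whose long form acts through the kinase JAK2 and the transcription factor STAT3, with SOCS3 and the phosphatase PTP1B as brakes. In the mammary gland the hormone is known from the fat pad and from milk, and myoepithelial cells are the contractile basal cells that squeeze milk from the alveoli in response to oxytocin. Adiponectin is another hormone of fat cells, made in large amounts once a fat cell has matured.

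The study profiled single mammary epithelial cells of C57BL/6N mice at 4 stages, with 2 mice and therefore 2 libraries per stage. The stages were nulliparous mice of 8 weeks (NP), gestation at day 14.5 (G), lactation at day 6 (L) and 11 days after natural weaning of the pups (PI). Mammary tissue of all stages was collected and processed at the same time. Cells were stained for CD31, CD45, Ter119 and EpCAM, and EpCAM-positive cells were sorted after gates against blood, vessel and stromal cells. Then 3′ droplet libraries with unique molecular identifiers (UMIs, which count molecules rather than reads) were made. The authors placed the cells that passed their filters in clusters named C1 to C19, of which C1 to C11 were luminal, C12 to C15 basal, C16 and C17 immune, C18 fibroblasts and C19 endothelial. C15 is a small Procr-positive cluster with some pericyte markers, and "basal cells" below are C12 to C14 alone.

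UMIs were summed per library and cluster wherever at least 20 cells were present, which gave 51 sums, and a level is given in UMIs per 1000000 UMIs of that sum (CPM). The 24699 cells in C1 to C19 had a median of 3959 UMIs in lactation, the shallowest stage, against 9476 in NP, 8484 in G and 6046 in PI. The basal cells numbered 504 and 283 in the NP mice, 528 and 604 in G, 4639 and 3105 in L but 28 and 59 in PI, and the C12 to C14 clusters nearly follow the stages, C12 holding NP and PI cells, C13 gestation cells and C14 lactation cells. Krt14, a basal keratin, was at 4878 and 5442 CPM in C14 of L_1 and L_2. Acta2, the smooth muscle actin of myoepithelial cells, was at 26580 and 22790 CPM there. The authors had used both genes to name the basal clusters, so these levels describe C14 and do not check its label. Of the 25806 barcodes, 791 occurred in more than 1 library, and 0 of the cells used here shared a barcode with another library. Intervals below are exact 95% intervals that cover counting error only.

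Lep lies on chromosome 6 at positions 29060220 to 29073877 of the plus strand (GRCm38, GENCODE M21), Lepr on chromosome 4 at 101717404 to 101815352, and Adipoq on chromosome 16 at 23146536 to 23158028, both also on the plus strand. No other annotated gene overlaps any of the 3. The 250 bases before the RefSeq start are shown for Lep and Adipoq, to set the 2 fat cell hormones beside each other, and for Pdzd3, the gene whose pattern was most like that of Lep (below). They are read 5′ to 3′ on the strand of the gene, at chr6:29059971-29060220 (+), chr16:23146286-23146535 (+) and chr9:44251465-44251714 (-) of GRCm38.p6. Capitals mark the matches on either strand to the C/EBP palindrome TTGCGCAA, the TATA box TATAA and the GC box GGGCGG.
Lep: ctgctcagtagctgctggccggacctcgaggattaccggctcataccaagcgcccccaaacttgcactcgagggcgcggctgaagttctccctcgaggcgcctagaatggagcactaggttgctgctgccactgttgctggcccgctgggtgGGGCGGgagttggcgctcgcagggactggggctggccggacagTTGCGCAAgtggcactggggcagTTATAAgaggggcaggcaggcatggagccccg
Adipoq: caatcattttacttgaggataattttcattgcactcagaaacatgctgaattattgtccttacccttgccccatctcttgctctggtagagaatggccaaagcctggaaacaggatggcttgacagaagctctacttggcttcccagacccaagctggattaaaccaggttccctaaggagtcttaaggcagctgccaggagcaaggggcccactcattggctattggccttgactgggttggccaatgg
Pdzd3: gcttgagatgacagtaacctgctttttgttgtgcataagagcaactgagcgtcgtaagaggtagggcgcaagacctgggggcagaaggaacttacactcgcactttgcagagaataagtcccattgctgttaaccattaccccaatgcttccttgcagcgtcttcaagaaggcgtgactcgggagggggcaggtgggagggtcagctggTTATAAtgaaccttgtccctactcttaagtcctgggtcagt
The Lep window held 1 C/EBP palindrome, from base -55 to -48 before the start, 1 GC box from -98 to -93, and TATAA on both strands between -32 and -27, where the matches overlap. Among all 32851 RefSeq windows of this length, 0.16% held the palindrome, 22.8% TATAA and 32.7% the GC box. The Adipoq window held none of these letters, and the Pdzd3 window held TATAA on both strands between -41 and -36. A match is a description of the letters and was not set against any binding data.

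Lep mRNA was highest in the basal cells of lactating mice, lower in the other lactation clusters, and nearly absent at the other stages. Of 3231 Lep UMIs in the cells of C1 to C19, 3132 (96.9%) lay in C14, the lactation myoepithelial cells. C14 also held 80.6% of all UMIs and 83.1% of the cells of the lactation libraries, so the level per UMI, not this share, compares the clusters. In C14 the level was 81.4 CPM in L_1, from 1719 UMIs in 4637 cells, with an interval of 77.6 to 85.3. It was 85.0 CPM in L_2, from 1413 UMIs in 3104 cells, with an interval of 80.7 to 89.6. The mean was 83.2 ± 2.6 CPM (SD, n = 2), and the 2 mice overlapped within counting error.

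Basal cells of the other stages held almost no Lep. In NP no Lep UMI was counted among 6451335 UMIs of the 2 mice, and in PI none among 427010. In G, 4 UMIs were counted in G_1, which is 1.01 CPM, and 0 in G_2. A count of 0 allows up to 0.705 CPM in NP_1 and 1.37 CPM in NP_2, but up to 26.2 CPM in PI_1 and 9.60 CPM in PI_2, where 28 and 59 basal cells were sequenced. Against a floor of 3 counts over the group, the lactation level was at least 178-fold higher than in NP and at least 11.8-fold higher than in PI. Against the 4 UMIs of G it was 175-fold higher, with a counting interval of 68.2 to 642. Lower levels of Lep in PI were not detectable at this depth.

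Over all clusters, the 37 sums of NP, G and PI held Lep in 1, the C13 basal cells of G_1, and 36 were at 0. Luminal cells held 0 Lep UMIs in 3327 cells of NP, 4025 of G and 5484 of PI. In the well-sampled C8 alveolar cells of gestation, 0 UMIs in 1926 and 1818 cells allow up to 0.113 and 0.137 CPM.

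**Figure D1:**
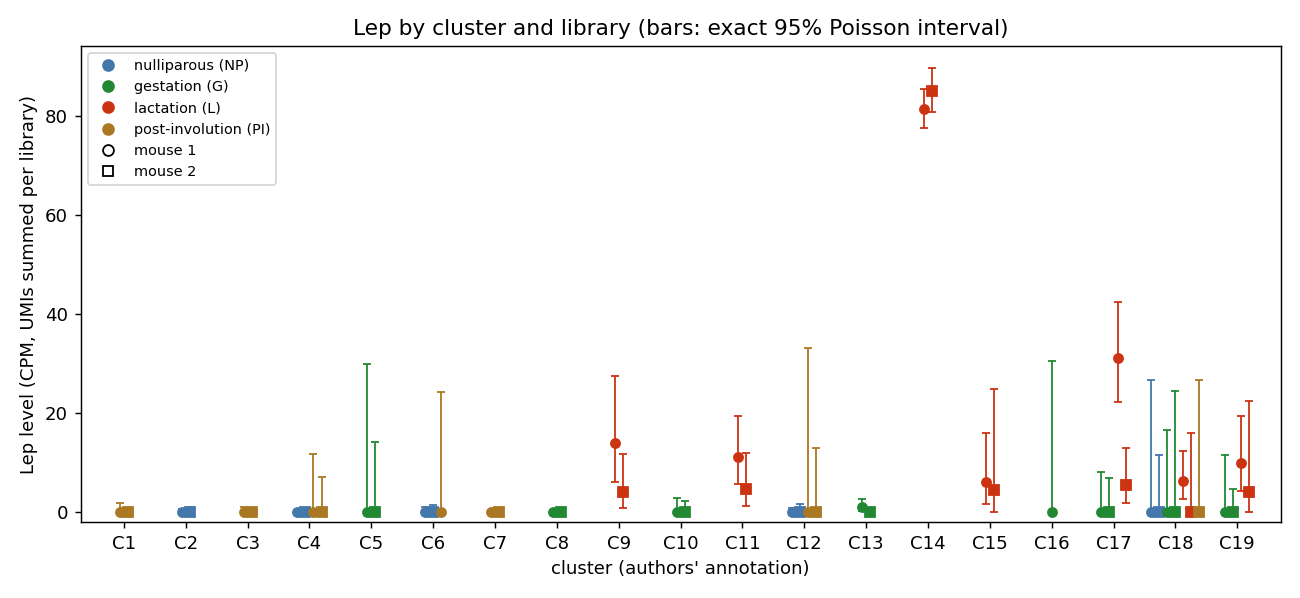
Level of Lep (y axis, CPM of the UMIs summed per library) in each cluster (x axis), with 1 point per library of at least 20 cells, coloured by stage, circles for mouse 1 and squares for mouse 2, and bars for the exact 95% Poisson interval. The 2 points of C14 sit at 81.4 and 85.0 CPM, above all other sums, of which the highest is C17 of L_1 at 31.1 CPM.

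Within lactation, 13 of the 14 sums held some Lep, the exception being the C18 fibroblasts of L_2, and all other sums lay below C14. In C17, immune cells by the authors' tag, it was 31.1 CPM in L_1 (40 UMIs) and 5.59 CPM in L_2 (5 UMIs). In C9, alveolar cells full of milk protein mRNA, it was 13.97 CPM in L_1 (8 UMIs) and 4.04 CPM in L_2 (3 UMIs). In C11, the alveolar progenitors, it was 11.1 and 4.70 CPM. The order of the stage means put C17 next to C14, at 18.3 CPM between its far apart mice, followed by C9 (9.01 ± 7.02 CPM, SD, n = 2), C11 (7.90 ± 4.52), C19 (6.97 ± 4.15), C15 (5.33 ± 1.24) and C18 (3.16 ± 4.46). After C14, each neighbour in this order differed from the next by less than the larger SD of the pair. C15 differed from C19 and from C18 by more than its own SD.

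C14 exceeded C9 by 5.82-fold in L_1 (counting interval 2.95 to 13.5) and by 21.0-fold in L_2 (7.18 to 102). It exceeded C11 by 7.33-fold (4.18 to 14.2) and 18.1-fold (7.05 to 66.5), and C17 by 2.62-fold (1.91 to 3.67) and 15.2-fold (6.51 to 46.9). Casein and other milk transcripts (8 genes) made up much of the C9 total, at 447500 CPM in L_1 and 417200 CPM in L_2. In C11 they were at 72150 and 59200 CPM, and in L basal cells at 1814 and 2121 CPM. Such transcripts lower the CPM of every other gene in C9, so a total without them would give smaller folds over C9. The size of this effect was not tested, and the counting intervals do not cover it. C17 of L_1 also held more basal RNA than C17 of L_2. Acta2 was at 7553 against 1772 CPM there, Krt14 at 1333 against 636 CPM and Oxtr, the oxytocin receptor, at 247 against 63.7 CPM. Per 1000 Krt14 UMIs, Lep was at 16.7 in C14 of L_1 and 15.6 in C14 of L_2, and at 23.3 and 8.79 in C17. In C9 and C11 the ratio was 45.7 and 13.0 in L_1 and 18.5 and 6.12 in L_2, each on 3 to 12 Lep UMIs. The part of free RNA or of mixed droplets in the Lep of the other lactation clusters was not tested.

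Lep was spread over many C14 cells. In L_1 a Lep UMI was seen in 25.4% of the cells (interval 24.2 to 26.7) and in L_2 in 28.7% (27.2 to 30.4). The alveolar C9 cells, which were deeper, had 11.9% in L_1 and 6.38% in L_2, at a median of 11602 and 16271 UMIs against 3701 and 4148 UMIs in C14. With every cell thinned to 1000 UMIs, the share was 6.84% and 7.27% in C14, and 1.11% and 0.286% in C9. No cell was shallower than that number in these clusters. The thinned UMIs of C9 still included its milk transcripts, which lowers the C9 share.

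In L_1, 817 cells held 1 Lep UMI, 243 held 2 and 119 held 3 or more, up to 9. In L_2, 587 cells held 1, 170 held 2 and 135 held 3 or more, up to 10. If every C14 cell had carried Lep at 1 common level, 29.6% of the L_1 cells and 34.6% of the L_2 cells would have shown a UMI at their depths, and 1.09% and 1.87% would have shown 3 or more. The cells observed with 3 or more were 2.57% and 4.35%, so the counts were less even over cells than a common level gives. The 10 cells with the most Lep held 3.26% of the Lep UMIs in L_1 and 4.39% in L_2.

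The shallowest C14 cells had the lowest Lep level. Cells with Lep had a median of 5461 UMIs in L_1 and 6024.5 in L_2, and cells without it 3330 and 3676.5. In 4 bins of equal size from the shallowest to the deepest cells, Lep was at 42.1, 70.4, 88.3 and 92.5 CPM in L_1. In L_2 the bins were at 42.9, 87.0, 102 and 86.1 CPM. The shallowest bin was the lowest in both mice.

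**Figure D2:**
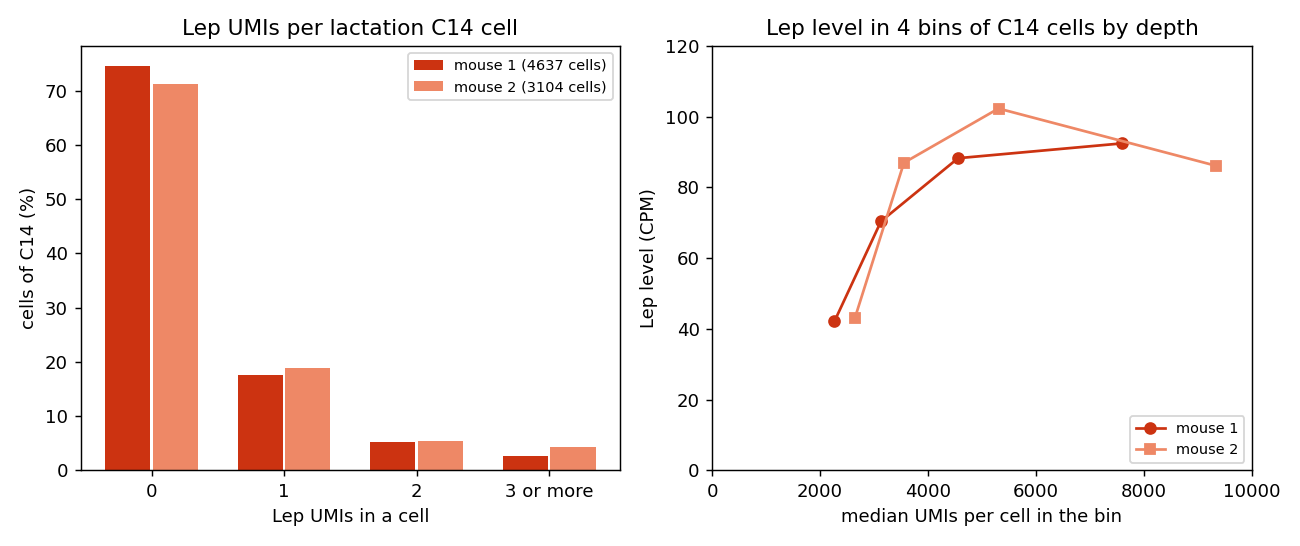
Left, share of lactation C14 cells (y axis, %) with 0, 1, 2 or 3 or more Lep UMIs (x axis), and right, Lep level (y axis, CPM) in 4 bins of C14 cells against the median UMIs per cell of the bin (x axis), for both mice. Most cells held 0 Lep UMIs, and the shallowest bin lay at 42.1 CPM in L_1 and 42.9 CPM in L_2, below the other bins.

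C14 was merged by the authors from 2 clusters of their coarse clustering, numbered 7 and 8, and Lep was higher in cluster 7 in both mice. Cluster 7 cells were also deeper, with a median of 4261 UMIs against 3180 in L_1 and 4952 against 3841 in L_2, and the part of depth in the difference was not tested. In cluster 7 it was 96.9 CPM (interval 91.6 to 102) in L_1 and 124 CPM (115 to 133) in L_2. In cluster 8 it was 56.4 CPM (51.3 to 61.8) in L_1 and 63.7 CPM (59.0 to 68.6) in L_2. Thinned to 1000 UMIs, the share of cells with Lep was 8.52% and 11.0% in cluster 7 and 4.76% and 5.62% in cluster 8. These clusters were cut from the same cells and genes, so their differences are a description. Cluster 7 also held 25 of the 26 Lepr UMIs of C14 in L_1 and all 15 in L_2, and every Adipoq UMI of C14. Of the 10 genes most like Lep (below), 8 were higher in cluster 7 in L_1 and 9 in L_2, at median ratios of 1.20 and 1.19, with Optc at 1.07 in both mice and Csn1s2b at 0.885 and 0.880. Pdzd3 was among those with larger ratios, at 70.8 against 37.9 CPM in L_1 and 43.7 against 22.8 CPM in L_2. Oxtr was at 848 against 575 CPM in L_1 and 857 against 570 CPM in L_2. Krt14 was the other way round, at 4311 against 5792 CPM and 4324 against 6053 CPM. Of the 10 contractile genes, 9 were higher in cluster 7 in each mouse, at a median ratio of 1.17 in both. Of the 5 basal keratins and markers, 1 was higher in each mouse, at median ratios of 0.885 and 0.891.

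The receptor gene was found mainly in other cells. Lepr had 323 UMIs in C1 to C19, of which 106 (32.8%) lay in the endothelial cluster C19, 102 (31.6%) in C4, the differentiated hormone-sensing luminal cells, and 41 (12.7%) in C14. In C19 it was at 96.5 CPM in L_1 (78 UMIs in 191 cells) and 44.4 CPM in L_2 (11 UMIs in 51 cells). In gestation the C19 cells held 21.9 CPM in G_1 (7 UMIs) and 12.9 CPM in G_2 (10 UMIs). Both lactation mice lay above both gestation mice, but the interval of L_2 (22.1 to 79.4) overlaps those of G_1 (8.79 to 45.0) and G_2 (6.17 to 23.7), and that of G_1 contains the level of L_2. The C19 cells numbered 7 in NP_1, 13 in NP_2, 0 in PI_1 and 10 in PI_2 and entered no sum.

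In the luminal epithelium Lepr was low, and seen mostly in nulliparous hormone-sensing cells. It was at 4.42 CPM in NP_1 and 3.17 CPM in NP_2 in C4, and at 2.71 and 1.73 CPM in C2, the progenitors of these cells. The share of C4 cells with a Lepr UMI was 5.25% and 3.38%, at a median of 10163 and 10309 UMIs per cell. In the alveolar C8 cells of gestation, at a similar depth of 10900.5 and 8676.5 UMIs, it was 0.104% and 0%. After involution the differentiated hormone-sensing cells of C3 held 0.600 CPM in PI_1 and 0.579 CPM in PI_2. All luminal cells of gestation held 2 Lepr UMIs in 4025 cells.

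Among basal cells Lepr was low, with 1 or 2 UMIs per library in NP and G and 26 and 15 UMIs in the far larger lactation sums. Lactation stood at 1.23 and 0.903 CPM, nulliparous mice at 0.235 and 0.910 CPM and gestation at 0.252 and 0.449 CPM. Both PI libraries were at 0, which allows up to 26.2 CPM in PI_1 and 9.60 CPM in PI_2. Lepr in PI therefore cannot be ranked against lactation. C19 was 78.5-fold above the basal cells of the same library in L_1 (49.8 to 128) and 49.1-fold above in L_2 (20.4 to 115). The 41 Lepr UMIs of C14 lay in few cells. In L_1, 20 cells held 26 UMIs, and in L_2, 4 cells held 15. An endothelial marker (Pecam1, Cdh5, Emcn, Eng, S1pr1 or Kdr) was also counted in 17 of the 20 and in 4 of the 4, against 7.67% and 5.52% of the C14 cells without Lepr. The summed endothelial markers were at 1332 and 1974 CPM in the Lepr cells and at 52.6 and 23.1 CPM in the other C14 cells. Cells with both Lepr and Lep numbered 7 in L_1 and 3 in L_2. The part of mixed droplets in the Lepr of C14 was not tested. Gene-level 3′ counts do not tell the short and long receptor forms apart.

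**Figure D3:**
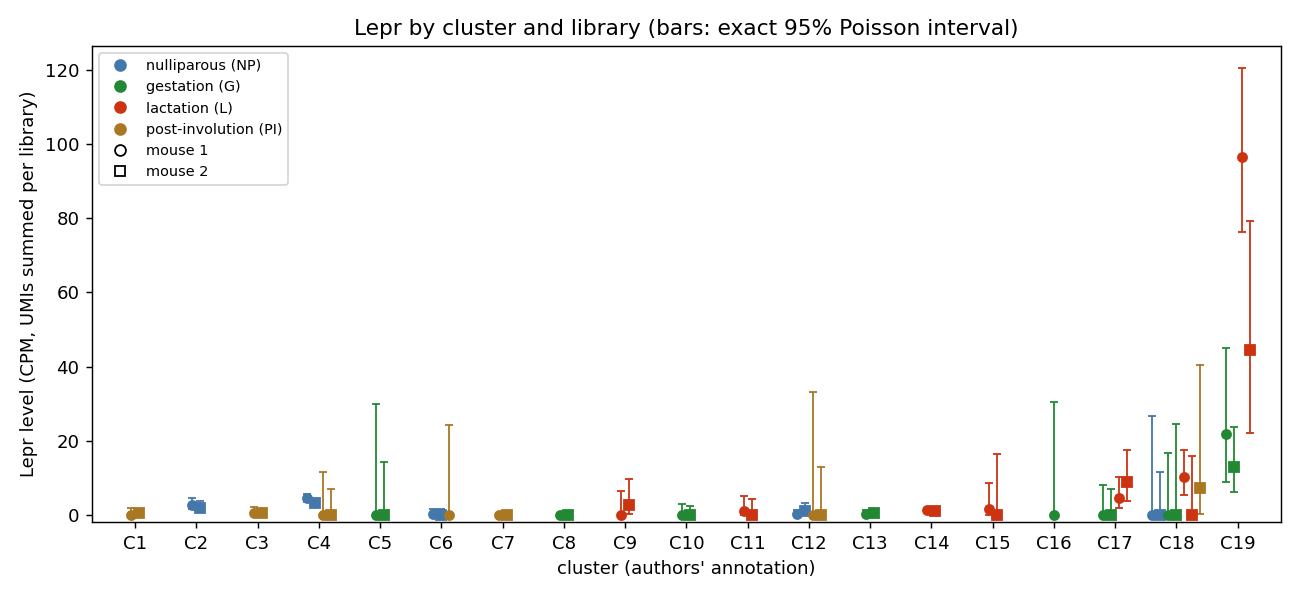
Level of Lepr (y axis, CPM of the UMIs summed per library) in each cluster (x axis), with 1 point per library of at least 20 cells, coloured by stage, circles for mouse 1 and squares for mouse 2, and bars for the exact 95% Poisson interval. C19 holds the highest points, at 96.5 and 44.4 CPM in lactation, and the C14 points lie at 1.23 and 0.903 CPM.

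Adipoq was almost absent. The cells of C1 to C19 held 22 Adipoq UMIs in 14 cells, and 10 of the UMIs lay in 2 endothelial-cluster cells of NP_2, which also held Cfd and Car3 UMIs, further products of fat cells. C14 held 1 Adipoq UMI in L_1 (0.0473 CPM, interval 0.00120 to 0.264) and 2 in L_2 (0.120 CPM, 0.0146 to 0.435). Of the 14 cells with Adipoq, 1 also held Lep, a C14 cell of L_2 with 1 UMI of each. Several other defining genes of fat cells were also close to 0 in lactation basal cells, but not all. Retn had 1 UMI in each of the 2 mice, Plin1 2 and 6, Cfd 2 and 0, Car3 7 and 0 and Cidec 0 and 0, beside 1719 and 1413 of Lep. Adig had 7 and 11 UMIs, and Adrb3, a receptor through which adrenaline acts on fat cells, had 47 and 21, which is 2.22 and 1.26 CPM against 0 to 0.252 CPM in the other 6 libraries. Its counts of 0 allow up to 1.37 CPM in NP_2, 26.2 CPM in PI_1 and 9.60 CPM in PI_2.

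The summed adipocyte list of 14 genes was nevertheless at 385 CPM in L_1 and 159 CPM in L_2 basal cells, against 65.1 to 90.3 in NP, 145 to 149 in G and 224 to 254 in PI. Fabp4, a fatty acid binding protein that endothelial cells also make, was the largest single contributor, at 262 CPM in L_1 and 76.2 CPM in L_2. Plin4, a lipid droplet coat protein, was at 40.9 and 32.5 CPM in L_1 and L_2, at 5.03 and 4.49 CPM in G, at 0.235 and 0 in NP and at 0 in PI. Of the summed markers of other cell types, the endothelial and milk protein lists were above the other 6 libraries in both L mice. The pericyte list was so in L_1 alone, and the fibroblast, immune and luminal lists lay within the range of the others. The 6 endothelial markers summed to 59.8 and 28.2 CPM in L basal cells, against 8.74 to 26.2 in the other 6 libraries. The 5 pericyte markers summed to 120 and 57.3 CPM, against 11.8 to 78.7. In the edgeR test described below, 5 of the 6 endothelial markers rose against NP, 2 against G and 0 against PI. Of the 5 pericyte markers, 4 rose against NP, 3 against G and 0 against PI. The shares of all genes called higher were 31.7%, 25.2% and 15.3%. Against PI the list medians were still 8.18 and 1.73 on the log2 scale. PI_1 and PI_2 held 1 and 5 endothelial and 9 and 13 pericyte UMIs, so depth limits the calls against PI. Both endothelial calls against G were lost without L_1 (edgeR adjusted p = 0.559 for Pecam1 and 0.202 for Eng), without either G mouse, and with DESeq2 (0.171 and 0.0992). The pericyte calls of Rgs5 and Notch3 against G and the calls of Cdh5 and Pdgfrb against NP were also lost without L_1 (edgeR adjusted p = 0.919, 0.232, 0.254 and 0.200). Fibroblast markers summed to 649 and 510 CPM in L against 69.9 to 901 in the others, immune markers to 136 and 116 CPM against 28.8 to 831, luminal markers to 3003 and 2586 CPM against 1764 to 8109, and milk protein genes to 1814 and 2121 CPM against 51.4 to 1776. Their part in the basal values below was not tested.

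Genes whose pattern was most like that of Lep were searched among the 5228 genes with at least 20 CPM in C14, by Pearson's r of log2(CPM + 1) over 50 sums of library and cluster. The sums share their libraries and clusters, and r is given as a description. Pdzd3, a PDZ domain scaffold protein, came closest, at r = 0.93. It stood at 58.2 and 30.2 CPM in C14, at 15.6 CPM in the next sum (C17 of L_1), and at 0.816, 1.09 and 0 CPM in the basal cells of NP, G and PI. Optc, which encodes the matrix proteoglycan opticin, had r = 0.85, at 165 and 119 CPM in C14. Plin4 had r = 0.83. The others of the first 10 included A830009L08Rik (0.81), the calcium store protein gene Casq2 (0.81), Ppp1r14a (0.79), an inhibitor of myosin phosphatase, the casein gene Csn1s2b (0.79), the urotensin-related peptide gene Uts2b (0.79) and the troponin gene Tnni2 (0.78). Ppp1r14a, Casq2 and Plin4 were higher in C15 of L_2 than in C14, and Csn1s2b was far higher in the alveolar C9 cells of L_1, at 27850 CPM, than in C14. Oxtr ranked 16 (r = 0.75), Acta2 59 (0.64) and Krt14 175 (0.51), behind these 10.

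The other genes of the leptin pathway and their surroundings were tested between stages in basal cells, on UMIs summed over C12 to C14 in each of the 8 libraries. The test was the quasi-likelihood test of edgeR, with p-values adjusted by Benjamini and Hochberg over the 11870 genes tested and called at an adjusted p of 0.05, with the mouse as replicate and 2 mice per stage. None of these genes was used to choose the members. Since C12, C13 and C14 nearly coincide with stages, stage and cluster cannot be told apart. The background was wide, and the counts called in every list are to be read beside it. L against NP called 31.7% of all genes higher and 30.5% lower in L, L against G 25.2% and 24.9%, and L against PI 15.3% and 12.3%. The median log2 fold change over all genes was 0.02, 0.03 and 0.26 in this order.

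Of 26 genes of leptin receptor signalling, 9 rose and 6 fell in L against NP. Against G, 6 rose and 7 fell, and against PI, 5 rose and 7 fell. These shares lie near those of all genes, except that 7 of 26 falling against PI is above the 12.3% of all genes. The list medians were -0.19, 0.02 and -0.05. Neither the kinase nor the transcription factor of the pathway was called higher in L against any stage. Jak2, the receptor's kinase, was at 16.3 and 17.9 CPM in L, 24.0 and 24.6 in NP, 19.1 and 19.1 in G, and 43.7 and 54.4 in PI, and it fell by 1.24 on the log2 scale against PI (edgeR adjusted p = 0.00971). Stat3 was at 215 and 231 CPM in L and at 308 and 281 in NP, and it fell by 0.53 against G (edgeR adjusted p = 0.00336) and by 0.66 against PI (0.00609).

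Socs3 and Cish, inhibitors of cytokine receptors, had the largest rises of the list against NP and PI, and Socs3 and Pik3r1 had them against G. Socs3, which binds the activated receptor and JAK2, was at 2447 and 2567 CPM in L, 421 and 372 in NP, 219 and 86.4 in G and 822 and 624 in PI, without overlap between L and any other stage. Its log2 fold change was 2.87 ± 0.27 (SE) against NP, 4.17 ± 0.29 against G and 2.20 ± 0.29 against PI (edgeR adjusted p = 1.36e-07, 9.53e-09 and 2.68e-05). Cish, a related inhibitor induced by STAT5, was at 66.4 and 73.7 CPM in L and at 5.46 to 44.8 CPM in the other libraries. It rose by 3.20 ± 0.30 against NP, 1.21 ± 0.24 against G and 2.08 ± 0.55 against PI (edgeR adjusted p = 9.68e-08, 0.000430 and 0.00949). The last call was lost without PI_1 (adjusted p = 0.0702) and without PI_2 (0.242). Ptpn1, which encodes PTP1B, went the other way, at 74.7 and 87.4 CPM in L against 141 to 280 CPM in the other libraries, and fell by 0.72, 0.87 and 1.28 (edgeR adjusted p = 0.000477, 0.000115 and 0.000145).

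Among the insulin receptor substrates and phosphoinositide kinase subunits of the list, members went both ways. Irs2, an adaptor shared with the insulin receptor, was at 176 and 193 CPM in L, 32.7 and 28.7 in NP, 165 and 142 in G and 61.2 and 80.0 in PI. Its log2 fold change was 2.78 ± 0.16 against NP, 0.39 ± 0.14 against G and 1.65 ± 0.24 against PI. Pik3r1, the regulatory subunit of the kinase, was at 657 and 667 CPM in L and at 111 to 221 CPM elsewhere. It rose by 2.55 ± 0.19, 2.07 ± 0.18 and 2.06 ± 0.24 (edgeR adjusted p = 7e-09, 1.38e-07 and 5.79e-06). Pik3cb, a catalytic subunit, was at 6.01 and 8.06 CPM in L and at 17.6 and 29.6 in G, where it fell by 1.63 ± 0.24 (edgeR adjusted p = 3.71e-05). Leprot, which lies beside Lepr and encodes a small membrane protein that lowers the receptor at the surface, was at 74.4 and 73.1 CPM in L and rose by 1.03, 0.44 and 1.09 (edgeR adjusted p = 3.13e-05, 0.0219 and 0.0148).

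**Figure D4:**
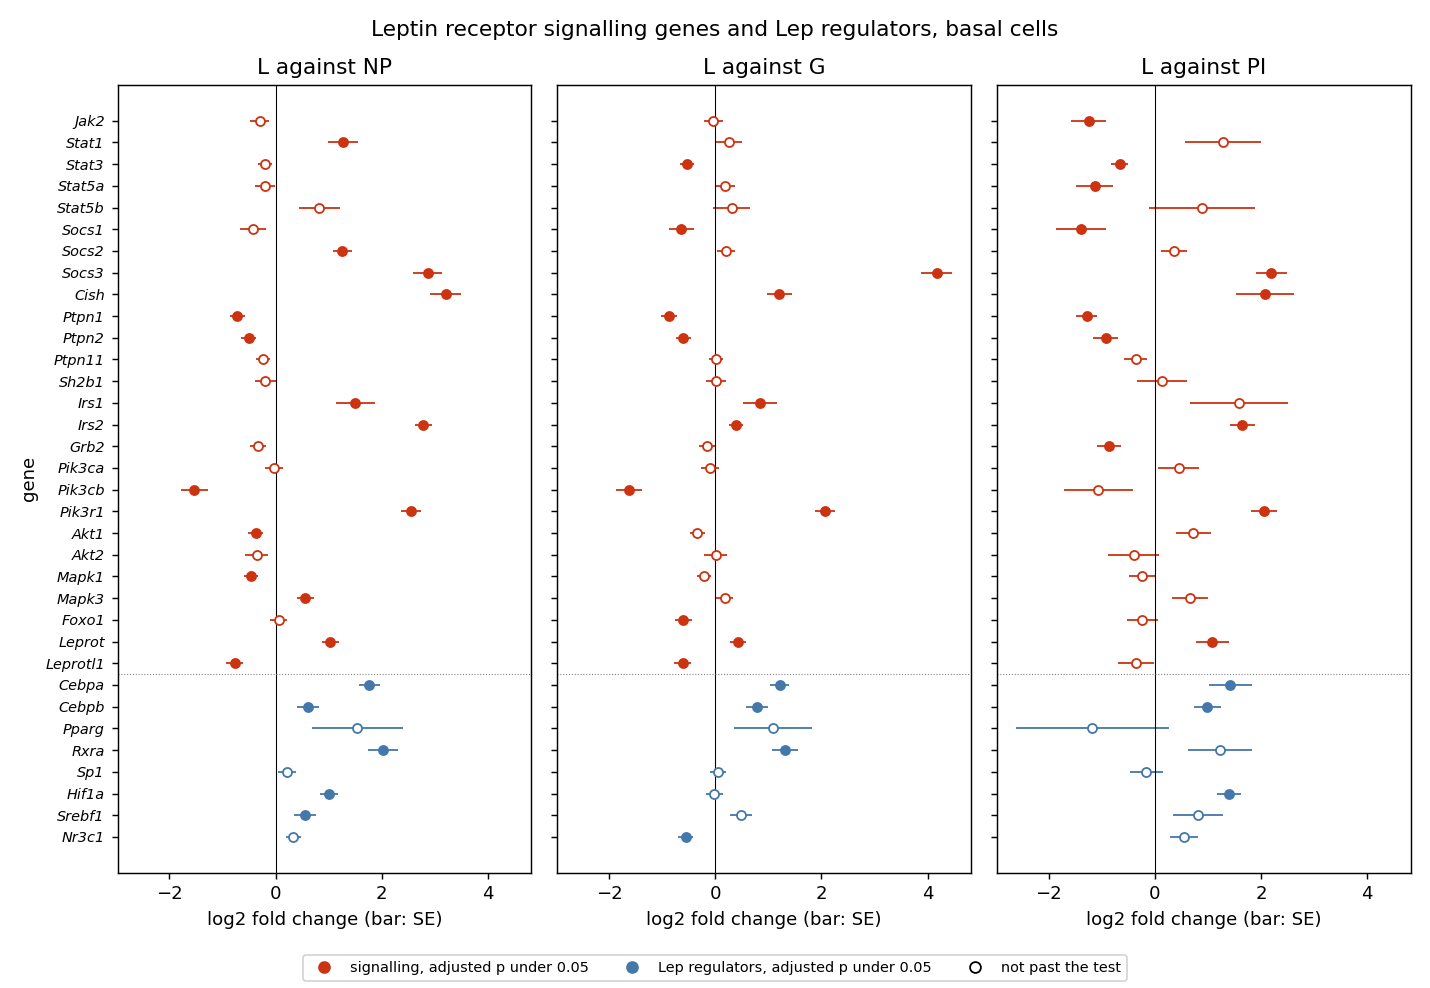
Log2 fold change of lactation basal cells (x axis, bars for the SE) against NP, G and PI for the 26 genes of leptin receptor signalling (red) and the 8 tested regulators of Lep transcription (blue), filled where the edgeR adjusted p was under 0.05. Socs3, Cish, Irs2 and Pik3r1 lie to the right in all 3 panels, Ptpn1 and Ptpn2 to the left, and Cebpa and Cebpb to the right.

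Of 9 genes known to regulate Lep transcription in fat cells, 8 were tested, and 1 (Cebpd) was not analysed here. Against NP 5 rose and 0 fell, against G 3 rose and 1 fell, and against PI 3 rose and 0 fell, with list medians of 0.81, 0.64 and 0.90. Cebpa, the C/EBP factor of mature fat cells, was at 43.4 and 45.8 CPM in L, 15.3 and 15.02 in NP, 24.4 and 17.7 in G and 26.2 and 19.2 in PI. It rose by 1.76 ± 0.20 against NP, 1.22 ± 0.18 against G and 1.42 ± 0.41 against PI (edgeR adjusted p = 7.14e-07, 2.77e-05 and 0.0151), the last not without PI_2 (0.337). Cebpb was at 504 and 733 CPM in L, 505 and 425 in NP, 366 and 418 in G and 603 and 282 in PI, so L_1 lay within the range of NP and PI. It rose by 0.62, 0.79 and 0.99 (edgeR adjusted p = 0.0148, 0.00410 and 0.00724), but not against NP without L_2 (0.149) or NP_2 (0.109), nor against PI without PI_2 (0.383).

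Rxra, the partner of PPARγ, was at 15.99 and 18.6 CPM in L and 5.64 and 3.64 in NP, and rose by 2.03 ± 0.28 against NP and 1.31 ± 0.24 against G (edgeR adjusted p = 8.41e-06 and 0.000279). Hif1a, the oxygen-sensing factor, was at 375 and 541 CPM in L, 241 and 283 in NP, 492 and 522 in G and 236 and 214 in PI, and rose against NP (1.01) and PI (1.40; edgeR adjusted p = 6.18e-05 and 0.000142). Nr3c1, the glucocorticoid receptor, fell by 0.56 against G (edgeR adjusted p = 0.00326). Pparg, the master regulator of fat cells, was at 2.41 and 0.782 CPM in L and at 0.235 to 8.74 CPM in the other libraries, and it did not pass the test against any stage (edgeR adjusted p = 0.127 against NP).

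Of the 6 receptors and partners of adiponectin, 2 rose and 1 fell against NP, 2 rose and 1 fell against G, and 1 rose and 0 fell against PI, with medians of 0.27, 0.34 and 0.63. Adipor1 was at 122 and 125 CPM in L and at 105 to 150 CPM in the other libraries, and Adipor2 at 23.1 and 20.9 CPM in L and at 17.9 to 41.6 CPM, and neither passed the test against NP (edgeR adjusted p = 0.107 and 0.995). Cdh13, encoding the adiponectin-binding T-cadherin, was at 150 and 152 CPM in L, 43.7 and 30.5 in NP, 134 and 130 in G and 26.2 and 54.4 in PI, and rose by 2.19 ± 0.17 against NP and 2.05 against PI (edgeR adjusted p = 9.23e-09 and 5.86e-05). Prkaa2, a catalytic subunit of AMP-activated kinase, rose by 1.86 against NP and 1.59 against G (edgeR adjusted p = 0.000494 and 0.00129). Prkaa1, the other catalytic subunit, rose by 1.29 against G (0.000367). The adaptor gene Appl1 fell by 0.43 against NP and by 0.38 against G (edgeR adjusted p = 0.0239 and 0.0491), calls that DESeq2 did not make (0.0788 and 0.0737).

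Of 16 other type I cytokine receptors, 12 were tested, and 4 rose and 5 fell against NP, 5 and 5 against G, and 3 and 4 against PI. Il6st, the shared signalling subunit of the gp130 cytokine receptors, was at 213 and 184 CPM in L and 69.2 to 125 CPM elsewhere, and rose by 1.63, 1.62 and 1.06 (edgeR adjusted p = 3.25e-08, 6.55e-08 and 0.000864). Il11ra1 rose by 2.75 and 1.37 against NP and G (edgeR adjusted p = 3.71e-09 and 4.59e-06). Of the receptor genes for the cytokines of allergic inflammation, Il4ra fell by 2.27 and Il13ra1 fell by 2.01 against NP (edgeR adjusted p = 6.67e-09 and 8.58e-08). Il15ra fell by 2.05 against G (4.76e-07). Prlr, the prolactin receptor, was at 1.23 and 0.842 CPM in L, 198 and 220 in NP and 1.76 and 5.16 in G, and fell by 7.40 ± 0.60 against NP (edgeR adjusted p = 1.86e-08). In PI it was at 0 in PI_1 and 621 CPM in PI_2, so the call against PI (edgeR adjusted p = 1.19e-07) rested on 1 mouse, whose basal cells also held 8109 CPM of the 6 luminal markers against 3497 CPM in PI_1. These markers were at 6197 and 4340 CPM in basal cells of NP, 1764 and 1883 CPM in G and 3003 and 2586 CPM in L. The part of luminal RNA in the Prlr values was not tested.

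Among 22 other hormones and secreted factors, 17 were tested. Against NP 7 rose and 6 fell, against G 3 rose and 8 fell, and against PI 3 rose and 7 fell. Of all genes, 31.7% rose and 30.5% fell against NP, 25.2% and 24.9% against G, and 15.3% and 12.3% against PI. Igfbp3, an insulin-like growth factor binding protein, was at 90.1 and 62.2 CPM in L, 1101 and 1085 in NP, 701 and 994 in G and 254 and 377 in PI, and fell by 3.64 against NP and 3.35 against G (edgeR adjusted p = 3.93e-10 and 2.70e-09). Igfbp5 fell by 3.44 against G (3.14e-10). Igfbp2 rose by 2.31 against NP and 4.44 against PI (edgeR adjusted p = 1.72e-06 and 8.48e-07) and was close to its gestation level, at 882 and 994 CPM in L and 972 and 786 in G. Hbegf, a growth factor of the EGF family, fell by 2.20 against NP and 3.03 against PI (edgeR adjusted p = 3.11e-08 and 7.05e-08). Rarres2, which encodes the adipokine chemerin, rose by 2.58 against G (2.66e-05), at 28.9 and 15.3 CPM against 4.78 and 3.37. Resistin (Retn), Rbp4, Cfd, Apln and Igf1 were too low to be tested.

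Of the 14 adipocyte genes 7 were tested, and 3 rose and 2 fell against NP, 2 rose and 0 fell against G, and 1 rose and 2 fell against PI. Plin4 rose against all 3 stages (edgeR adjusted p = 1.05e-09, 5.07e-08 and 0.000187). Fabp4 rose by 3.10 against NP and by 1.24 against G. The call against G was not made by DESeq2 (adjusted p = 0.259) or with only the 2 stages in the fit (edgeR adjusted p = 0.0515). It was also lost without either G mouse and without L_1, where the log2 fold change was 0.13. L_2, at 76.2 CPM, lay below both G mice (79.0 and 77.2 CPM). Cd36, a fatty acid carrier that endothelial cells also express, rose by 2.88 against NP (edgeR adjusted p = 6.78e-05). Pnpla2, a lipase of stored fat, fell by 0.81 against NP and 1.76 against PI (edgeR adjusted p = 0.00109 and 0.000464). Its call against PI was lost without PI_2, where the log2 fold change was -1.37.

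All 10 contractile genes rose and 0 fell against each of the 3 stages, with medians of 2.89, 1.60 and 3.71 on the log2 scale. Oxtr was at 743 and 672 CPM in L, 52.2 and 72.4 in NP, 74.7 and 61.7 in G and 8.74 and 15.99 in PI, and rose by 3.73 ± 0.18, 3.50 ± 0.18 and 6.00 ± 0.35 (edgeR adjusted p = 6.6e-11, 3.1e-10 and 2.63e-09). The light chain kinase gene Mylk rose by 3.99 against NP and 4.31 against PI (edgeR adjusted p = 6.18e-11 and 9.29e-10). Of the 5 basal keratins and markers, 3 rose against NP, 4 against G and 4 against PI, and 0 fell. Of all genes, 31.7%, 25.2% and 15.3% rose in these contrasts. The Krt14 call against PI was lost with only the 2 stages in the fit (edgeR adjusted p = 0.0628). It was also lost with a filter of at least 0.1 counts per cell on average (0.151), and without L_2 or PI_2. Krt17 lost its call against PI without PI_1, and Krt5 lost its call against NP without NP_2.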

How the data were processed

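The deposited count matrices held UMI counts per gene and barcode, made by the authors with Cell Ranger (STAR, mm10) and not normalised. Cells, quality flags and clusters were taken from the authors' annotation, in which poor-quality cells, shared barcodes and a doublet cluster had been set aside. No further doublet caller was run. The members and gene lists were chosen with earlier results of these data known.

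Levels were summed UMIs per 1000000 UMIs for sums of at least 20 cells. Intervals were exact Poisson or Clopper-Pearson at 95%, and a count of 0 was bounded by 3 counts. Basal sums (C12 to C14) of all 8 libraries entered 1 edgeR (4.0.16, R 4.3.3) quasi-likelihood fit with TMM scaling, filterByExpr and the stage as group, checked on simulated data. From each list the called genes with the largest fold changes were named, up to 4 per contrast, with pathway genes of known role added after their values were seen. Marker lists of other cell types are given as sums and counts. Of the 10 genes most like Lep, 1 is not reported here. Alternatives were DESeq2 (1.42.0), other filters, samples, clusters, a replicate block and leaving out each mouse. The edgeR p-values rest on the spread between mice of the same stage, estimated over all 8 libraries with 4 residual degrees of freedom. This spread was moderated over genes (12.9 prior degrees of freedom), so it is not that of the 2 compared stages alone. The SE of a log2 fold change was derived from the test, as its absolute value divided by the square root of the F statistic. Promoter windows came from RefSeq (GRCm38.p6) and gene positions from GENCODE M21.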

Additional observations from a re-analysis of the deposited data

Results flagged for a closer look

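Lep was also present in barcodes that had been left out of the clusters, nearly all of which occurred in more than 1 library. In the L libraries, 284 removed barcodes, 283 of them shared with another library, held 101 Lep UMIs, which is 71.7 CPM, against 0 Lep UMIs in the 153 removed barcodes of NP, the 195 of G and the 165 of PI. This result stood out because it appeared in data that no comparison above used, above the level of the other stages. Over all cells of C1 to C19, Lep was at 66.9 CPM in L_1 and 71.7 CPM in L_2, so the removed barcodes were near the level of their own libraries. Lepr had 4 UMIs and Adipoq 0 in the same removed L barcodes.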

How the results depend on the processing

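The Lep level in C14 (83.2 CPM) became 73.2 CPM with each cell thinned to 1000 UMIs and 76.5 CPM as the mean of single-cell values. Lepr there (1.07 CPM) became 0.539 and 0.718 CPM, and Adipoq (0.0838 CPM) 0.269 CPM when thinned. Leaving out a mouse gave 81.4 to 85.0 CPM for Lep, 0.903 to 1.23 for Lepr and 0.0473 to 0.120 for Adipoq. A filter of at least 0.1 counts per cell on average, which tests fewer genes, called 4076 genes against 7385 for L against NP and 3489 against 5949 for L against G. Without 1 mouse the calls ranged from 5463 to 6903 for L against NP, 4079 to 5389 for L against G and 1068 (without PI_2) to 3080 for L against PI (main 3271), and signalling genes called from 12 to 14 (main 15), 8 (without G_2) to 12 (main 13) and 7 (without PI_1 or PI_2) to 12 (main 12). Leaving out 1 mouse moved the pericyte marker Rgs5 in L against G from -0.049 (without L_1) to 2.29, and in L against PI Prlr from -8.84 to 6.06 and Adig from -4.36 to 4.97, the turned values of both being those without PI_2, where PI_1 holds 0 UMIs. Over the single genes, 68 values lost their call under an alternative, the 3 turned ones lost it too, and 1179 kept direction and call.

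Samples of the same number did not deviate together (correlations from -0.043 to 0.016 over 11870 genes), so the replicate number marks no pairing. With the number as a replicate block, 7320 genes were called for L against NP, 5904 for L against G and 3146 for L against PI, and the signalling genes called stayed at 15, 13 and 12. Appl1 in L against G was lost under the block (adjusted p = 0.0516). Depth limits PI most, with 28 and 59 basal cells.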
